A study of Mus musculus with 6 samples.

Results

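The genes described here are 40 antioxidant defense genes, chosen by name as enzymes that remove reactive oxygen species, or support their removal, and as their regulator. They comprise superoxide dismutases and catalase, glutathione peroxidases, peroxiredoxins, the glutathione and thioredoxin systems, glutathione S-transferases, quinone and heme enzymes, 2 enzymes that supply NADPH, and Nfe2l2 with Keap1. All 40 were present among the 25823 genes of the expression table, and all 40 were among the 19649 genes tested. RNA-sequencing was performed on cochleae of C57BL/6 mice at 2 ages, 1 month (young; the study's methods give 4 weeks) and 12 months (old). The labels describe dissected cochlear basilar membranes. Each age had 3 samples, and each sample held tissue mixed from 3 mice. No genetic change or treatment was given for either group, and C57BL/6 is an inbred strain that loses hearing early in life. Tests across the samples therefore measure the spread between pools and not between single mice, and maturation after 1 month and aging cannot be told apart.

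Superoxide, which leaks from the mitochondrial respiratory chain, is converted to hydrogen peroxide by superoxide dismutases, and catalase, glutathione peroxidases and peroxiredoxins reduce the peroxide. The last of these draw on glutathione or thioredoxin, which are recycled at the expense of NADPH. The transcription factor Nrf2, encoded by Nfe2l2, induces many of these genes through antioxidant response elements and is held in check by Keap1. In the cochlea, oxidative damage has long been studied in relation to the loss of hair cells.

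Expression was given as FPKM, that is, fragments relative to the length of the transcript and to the depth of the sample, summed here over the transcripts of a gene. The depth was estimated at 12280000 to 15410000 fragments per sample. Markers of cochlear cells were present in every sample. The 10 hair cell markers summed to 974 to 1324 FPKM in young and 540 to 635 FPKM in old samples. Of these, 4 fell, namely Slc26a5, Ocm, Calb2 and Pvalb. Most of the sum came from Calb2 (504 to 838 FPKM in young, 303 to 349 FPKM in old) and Pvalb (256 to 365 FPKM and 164 to 193 FPKM). Among young samples, Calb2 and Pvalb were lowest in young sample 3, as was the sum of the spiral ganglion neuron markers (522 FPKM). Ocm was highest in that sample (173 FPKM). Whether Calb2 and Pvalb came from hair cells or from neurons was not tested, so their fall need not reflect hair cells. Among the 6 that did not pass, log2 changes ran from -1.33 for Pou4f3 (limma adjusted p = 0.0567) to 0.002 for Myo7a (adjusted p = 0.997). Of 8 markers of spiral ganglion neurons 5 fell (522 to 1029 FPKM in young, 362 to 392 FPKM in old). The 3 that did not pass were Prph (log2 change 0.70, limma adjusted p = 0.0687), Mapt (0.58, adjusted p = 0.189) and Th (-0.45, adjusted p = 0.331). For Prph every old sample was above every young sample. Of 6 markers of Schwann cells 3 fell (751 to 1191 FPKM against 643 to 672 FPKM). The 8 supporting cell markers summed to 1400 to 1579 FPKM in young and 1564 to 1706 FPKM in old samples, with 1 higher. Of 12 macrophage markers 9 rose, from a sum of 141 to 226 FPKM to 756 to 825 FPKM, with Cd163 under 1 FPKM on average. Young sample 1 stood apart for neutrophil markers (433 FPKM, against 11.6 to 82.5 FPKM in the other 5 samples) and for osteoblast markers (315 FPKM, against 41.7 to 161 FPKM). Of 7 osteoblast markers 2 fell and the groups did not overlap for 6 (73.8 to 315 FPKM in young, 41.7 to 63.8 FPKM in old). The sums of 5 endothelial markers (68.3 to 103 FPKM against 35.4 to 63.2 FPKM, none past the test) and of 6 fibrocyte markers (11565 to 13899 FPKM against 9672 to 10199.7 FPKM, 1 higher and 1 lower) did not overlap either. Beside these counts, 5.41% of all genes tested were higher and 3.68% were lower at a limma adjusted p below 0.05. The old samples lay wholly below the young ones for 16% of all genes. In bulk tissue, fewer cells of a type and less RNA per cell cannot be told apart, and the part of the cell markers in the values of the antioxidant genes was not tested.

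The antioxidant genes were abundant in the cochlea. Of the 40 genes, 37 had a mean of at least 10 FPKM, and the exceptions were Sod3, Gpx7 and Txnrd2. Their summed level was 4522, 4112 and 4589 FPKM in the young samples and 4554, 4658 and 4619 FPKM in the old samples. Young sample 2 was the lowest, and the groups overlapped. The level was unevenly divided: Gpx4 and Gsta4 together held 39.1% of the sum over all samples, the 5 most abundant genes held 56.7% and the 10 most abundant held 74.3%.

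**Figure D1:**
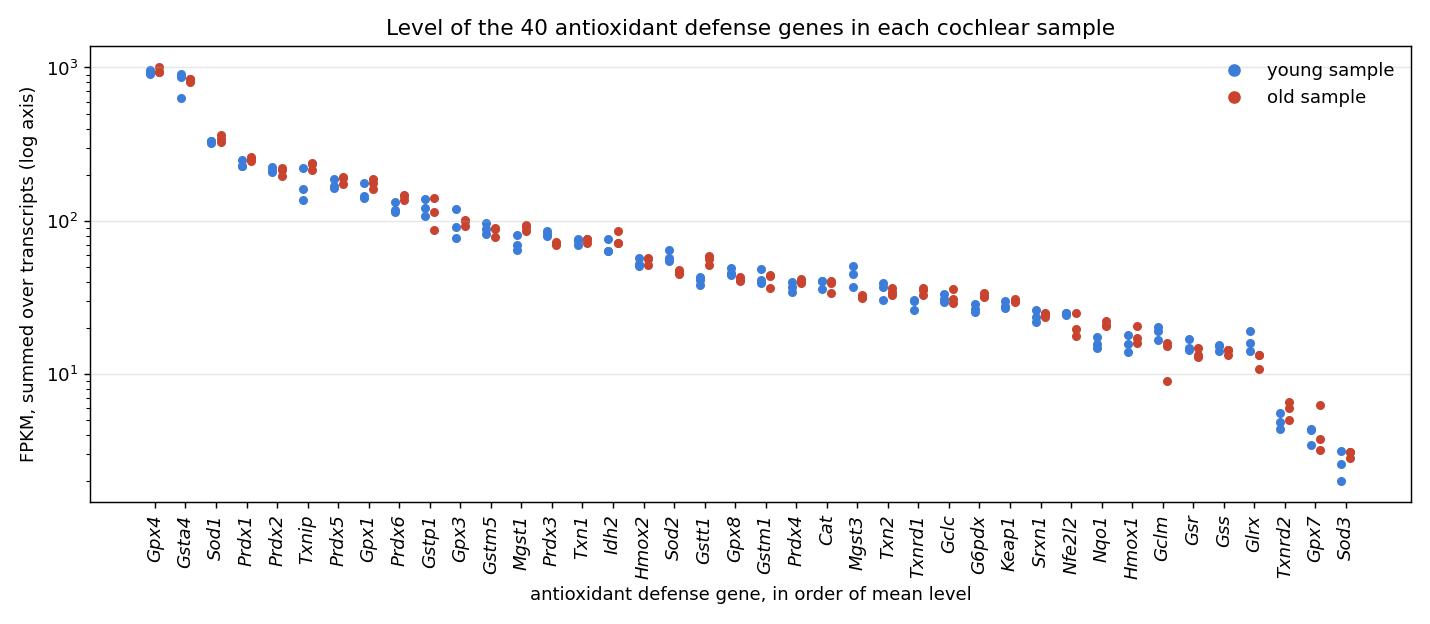
FPKM of each of the 40 antioxidant defense genes (log axis) in each young (blue) and old (red) cochlear sample, with genes in order of their mean level. Gpx4 and Gsta4 stood above all other members in every sample, and the 3 genes at the right, Txnrd2, Gpx7 and Sod3, had means under 10 FPKM.

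Differences between the ages were small. Gstt1 and Nqo1 were higher in old cochleae and Sod2 was lower, at an adjusted p below 0.05 (limma with Benjamini-Hochberg adjustment over all genes tested). Each of them had an exact permutation p of 0.1 (two-sided), the smallest possible with 3 against 3 samples, which cannot reach 0.05. These 2 higher genes were 5% of the members, beside 5.41% of all genes tested, and the 1 lower gene was 2.5%, beside 3.68% of all genes. The other 37 genes did not pass the test. At an unadjusted p below 0.05, 7 members were higher and 6 were lower (17.5% and 15%), beside 14.5% and 13% of all genes. The 3 old samples lay above the 3 young samples for 6 members and below them for 6 members (15% each), while the same held for 17.5% and 16% of all genes. Thus neither the share of members past the adjusted threshold nor the share without overlap was above that of genes at large. Among the genes with a mean of at least 10 FPKM, 8.31% were higher and 4.88% were lower, and the old samples lay above the young ones for 21.9% and below them for 18.6%, beside 5.41%, 2.7%, 16.2% and 16.2% of the 37 members at that level.

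The log2 changes (old minus young) of the 40 genes ran from -0.51 for Gclm (-0.25 without old sample 2) to 0.45 for Gstt1. Their median was 0.05, beside 0.01 over all genes tested. Of the members, 25 values were positive and 15 negative, beside 10011 positive and 9638 negative values among all genes tested. No member reached a log2 change of 1 in either direction, beside 11.5% of all genes tested and 2.37% of genes with a mean of at least 10 FPKM. The 95% confidence interval lay within -0.5 to 0.5 for 27 of the 40 genes, beside 32.2% of all genes tested, so that changes beyond that size lay outside the intervals of these genes, while it reached further for the other 13. Among genes with a mean of at least 10 FPKM the intervals of 27 of 37 members lay within these bounds, and so did those of 64.9% of all such genes.

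**Figure D2:**
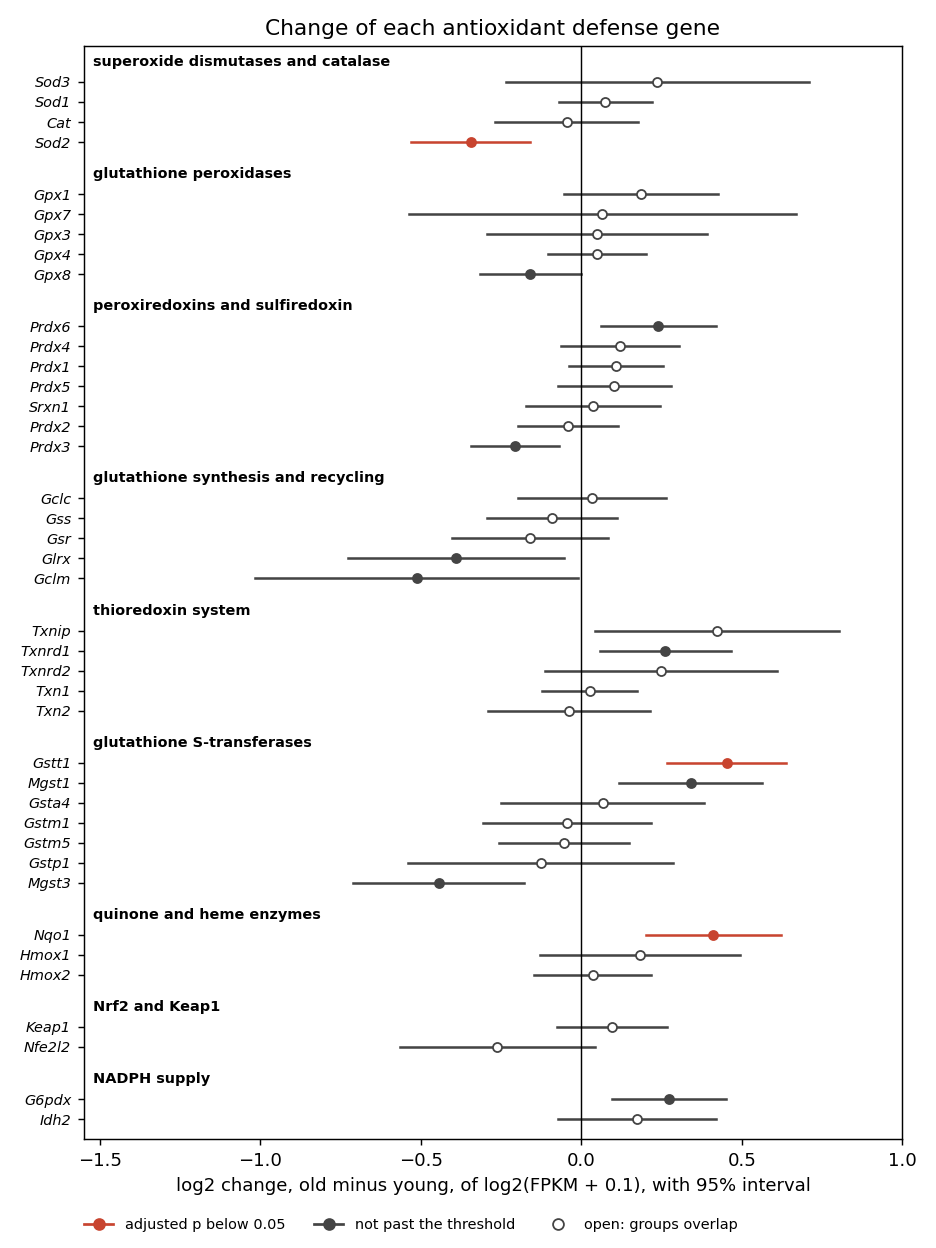
Log2 change (old minus young, on the log2(FPKM + 0.1) scale) of each of the 40 genes, grouped by system, with its 95% confidence interval from limma. Red marks the 3 genes with an adjusted p below 0.05, namely Sod2 to the left of 0 and Gstt1 and Nqo1 to the right, and open points mark the 28 genes whose young and old samples overlapped.

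**Figure D3:**
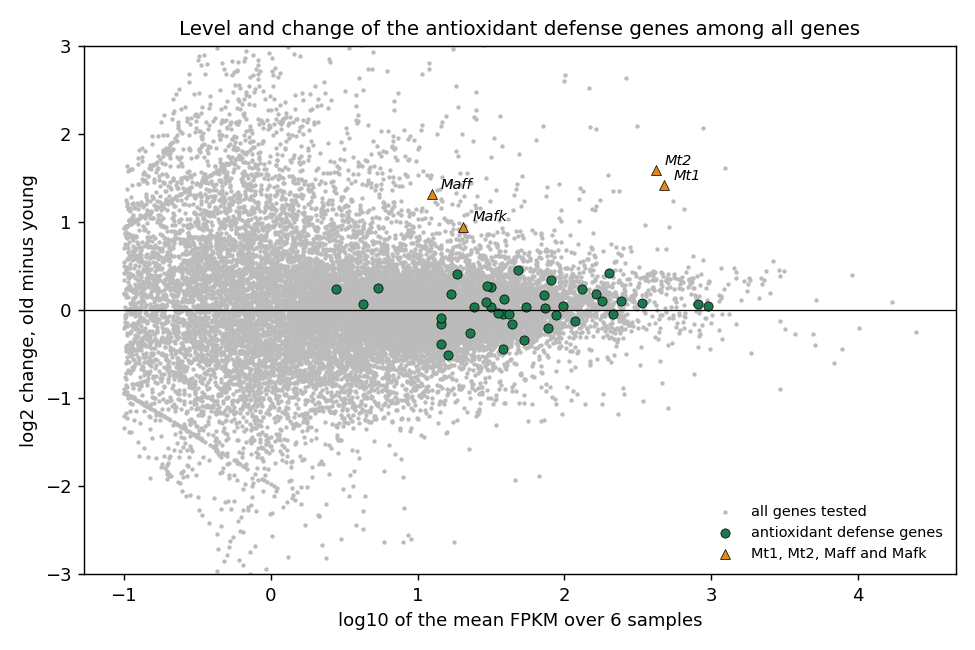
Log2 change against log10 of the mean FPKM for all genes tested (gray), the 40 antioxidant defense genes (green) and Mt1, Mt2, Maff and Mafk (orange triangles). The antioxidant genes lay between -0.51 and 0.45, the 4 genes marked by triangles lay near or above 1, and 77 genes beyond 3 in either direction are not shown.

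Among the superoxide dismutases, only the mitochondrial enzyme passed the test. Sod2, the manganese enzyme of the mitochondrial matrix (chr17:13006846-13040063, + strand, GRCm38), was at 57.6, 64.8 and 54.6 FPKM in young samples, and its old values were 46.3, 45.1 and 47.6 FPKM. Every old sample was below every young sample. Sod2 thus fell from 59.0 ± 5.27 to 46.3 ± 1.25 FPKM (SD, n = 3), a log2 change of -0.34 (SE 0.08, 95% confidence interval -0.53 to -0.16, limma adjusted p = 0.0419). With 1 sample left out in turn, the call held without young sample 3 (limma adjusted p = 0.0351) and was lost for the other 5 samples (adjusted p = 0.139 at most), with log2 changes of -0.40 to -0.28.

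Sod1, the copper-zinc enzyme of the cytosol (chr16:90220754-90226329, + strand), was at 320.5, 330.5 and 331 FPKM in young and 365, 329 and 342 FPKM in old samples. The groups overlapped, with a log2 change of 0.08 (SE 0.06, 95% confidence interval -0.07 to 0.22, adjusted p = 0.475) that was -0.11 after quantile normalization. The secreted enzyme Sod3 had a low level of 2.58 ± 0.574 FPKM in young and 3.02 ± 0.157 FPKM in old samples (SD, n = 3), and its interval of -0.23 to 0.71 was wide. Catalase (Cat), the peroxisomal enzyme that splits hydrogen peroxide, was at 39.0 ± 2.81 and 37.8 ± 3.62 FPKM, a log2 change of -0.05 (95% confidence interval -0.27 to 0.18).

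None of the 5 glutathione peroxidases passed the test. Gpx4, which reduces lipid peroxides in membranes, was the most abundant of the 40 genes, at 925, 903 and 961 FPKM in young and 1012, 935 and 938 FPKM in old samples. The groups overlapped, with means of 929.8 ± 29.5 and 962 ± 43.6 FPKM (SD, n = 3) and a log2 change of 0.05 (SE 0.07, 95% confidence interval -0.10 to 0.20, adjusted p = 0.668), which was -0.03 after quantile normalization. Gpx1, the cytosolic and mitochondrial peroxidase, had a log2 change of 0.19 (adjusted p = 0.287), and Gpx3, the secreted form, varied more among young samples (77.4 to 119 FPKM) than among old ones (92.5 to 101 FPKM). Gpx8, which resides in the endoplasmic reticulum, was at 44.6 to 48.9 FPKM in young and 40.6 to 42.9 FPKM in old samples without overlap, and did not pass (log2 change -0.16, adjusted p = 0.180). Gpx7, of the same compartment, was at 4.05 and 4.4 FPKM on average with an interval of -0.54 to 0.67.

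The 6 peroxiredoxins and Srxn1 had no gene past the threshold, and all 7 intervals lay within -0.5 to 0.5. Prdx1, a cytosolic peroxiredoxin, was at 229, 228 and 248 FPKM in young and 244, 261 and 254 FPKM in old samples. The groups overlapped (log2 change 0.11, SE 0.06, adjusted p = 0.314). Prdx2, its close relative, was at 226, 214 and 209 FPKM in young and 197, 214 and 220.2 FPKM in old samples. Here too the groups overlapped (log2 change -0.04, SE 0.07, adjusted p = 0.725). Prdx3, the mitochondrial peroxiredoxin, was at 79.8 to 85.3 FPKM in young and 69.8 to 72.8 FPKM in old samples, without overlap (log2 change -0.21, SE 0.06, adjusted p = 0.0699). Prdx6, which is reduced by glutathione and acts on phospholipid peroxides, was at 114 to 133 FPKM in young and 137 to 148 FPKM in old samples, also without overlap (log2 change 0.24, SE 0.08, adjusted p = 0.0925). Neither passed the test, but Prdx3 passed with quantile normalization (adjusted p = 0.0357) and Prdx6 without young sample 3 (adjusted p = 0.0419). Prdx4 of the endoplasmic reticulum, Prdx5, and Srxn1, which restores overoxidized peroxiredoxins, had log2 changes of 0.12, 0.10 and 0.04.

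In the synthesis and recycling of glutathione, 4 of 5 genes had negative values and 0 passed the test. Gclc and Gclm encode the catalytic and the modifier subunit of glutamate-cysteine ligase, the rate-limiting enzyme of glutathione synthesis. Gclc was at 31.1 ± 1.88 FPKM in young and 32.0 ± 3.57 FPKM in old samples (SD, n = 3). Gclm was at 16.7, 20.4 and 19.2 FPKM in young samples and 16.1, 9.09 and 15.3 FPKM in old samples. The old samples of Gclm were all lower, with old sample 2 far below the others (log2 change -0.51, SE 0.22, adjusted p = 0.175), and without that sample the log2 change was -0.25 (adjusted p = 0.292). The most abundant Gclm transcript, ENSMUST00000029769 (5589 nt), was at 6.63, 8.04 and 7.05 FPKM in young and 5.63, 6.45 and 5.28 FPKM in old samples (log2 change -0.32). Old sample 2 was low in the shorter transcripts ENSMUST00000178826 (2.33 FPKM) and ENSMUST00000149983 (0.0946 FPKM). How fragments were divided among these transcripts was not tested. Glrx, a glutaredoxin that removes glutathione from proteins, was at 14.1 to 19.2 FPKM in young and 10.7 to 13.4 FPKM in old samples without overlap (log2 change -0.39, SE 0.14, adjusted p = 0.132). Glutathione reductase (Gsr) and glutathione synthetase (Gss) had log2 changes of -0.16 and -0.09, with overlapping groups.

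In the thioredoxin system, 4 of 5 genes had positive values and 0 passed. Txnrd1, the cytosolic thioredoxin reductase, was at 26.2 to 30.6 FPKM in young and 32.6 to 36.2 FPKM in old samples without overlap (log2 change 0.26, SE 0.09, adjusted p = 0.104). Txnip, which binds and inhibits thioredoxin, was at 223, 137 and 161 FPKM in young and 214, 237 and 234 FPKM in old samples. Its groups overlapped, with young sample 1 as high as the old samples (log2 change 0.42, SE 0.16, adjusted p = 0.147). Txnip passed without young sample 1 (log2 change 0.62, adjusted p = 0.0314), and its log2 change was 0.27 without young sample 2 (adjusted p = 0.328). The thioredoxins Txn1 (cytosolic) and Txn2 (mitochondrial) had log2 changes of 0.03 and -0.04, and the mitochondrial reductase Txnrd2, at 4.94 and 5.89 FPKM on average, had one of 0.25 with an interval of -0.11 to 0.61.

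The 7 glutathione S-transferases, which join glutathione to reactive compounds, held the most positive log2 change of the 40 genes as well as the second most negative. Gstt1, a theta class transferase (chr10:75783813-75798584, - strand), was at 40.9, 38.3 and 42.7 FPKM in young and 56.3, 59.2 and 51.6 FPKM in old samples. Every old sample was above every young sample. Gstt1 rose 1.37-fold, from 40.6 ± 2.23 to 55.7 ± 3.86 FPKM (SD, n = 3), with a log2 change of 0.45 (SE 0.08, 95% confidence interval 0.27 to 0.64, limma adjusted p = 0.0230). The call held without young sample 3 or old sample 3 (limma adjusted p = 0.0255 for the former) and was lost without any of the other 4 samples (adjusted p = 0.0900 at most), with log2 changes of 0.41 to 0.51.

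The membrane-bound transferases Mgst1 and Mgst3 had values of opposite sign and neither passed the test. Mgst1 was at 64.2 to 81.3 FPKM in young and 86.0 to 93.5 FPKM in old samples (log2 change 0.34, SE 0.09, adjusted p = 0.0666). Mgst3 was at 50.4, 45.3 and 37.0 FPKM in young and 32.0, 33.1 and 31.6 FPKM in old samples (log2 change -0.44, SE 0.11, adjusted p = 0.0542). The groups overlapped for neither gene, and both passed when young sample 3 was left out (adjusted p = 0.0232 and 0.0146). Gsta4, which conjugates the lipid peroxidation product 4-hydroxynonenal, was the most abundant transferase, at 863, 631 and 912 FPKM in young and 845, 844 and 801 FPKM in old samples. Young sample 2 was the lowest of the 6, and the groups overlapped (log2 change 0.07, SE 0.14, adjusted p = 0.781; -0.06 after quantile normalization). Gstm1, Gstm5 and Gstp1 had log2 changes of -0.04, -0.05 and -0.13 with overlapping groups.

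Nqo1, the quinone reductase that is widely used as a readout of Nrf2 (chr8:107388225-107403206, - strand), was at 15.8, 14.8 and 17.5 FPKM in young and 22.3, 20.7 and 20.98 FPKM in old samples. Every old sample was above every young sample. Nqo1 rose 1.33-fold, from 16.04 ± 1.35 to 21.3 ± 0.820 FPKM (SD, n = 3), with a log2 change of 0.41 (SE 0.09, 95% confidence interval 0.20 to 0.62, limma adjusted p = 0.0363). The call held without young sample 3 (limma adjusted p = 0.0286) and was lost without any of the other 5 samples (adjusted p = 0.111 at most), with log2 changes of 0.36 to 0.48. The heme oxygenases, which degrade heme, did not pass: inducible Hmox1 was at 15.8 ± 2.00 and 18.0 ± 2.46 FPKM (adjusted p = 0.418), and constitutive Hmox2 was at 53.7 ± 3.46 and 55.0 ± 3.40 FPKM (SD, n = 3).

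Of the suppliers of NADPH, G6pdx, the entry enzyme of the pentose phosphate pathway, was at 25.5, 26.7 and 28.7 FPKM in young and 32.1, 31.7 and 34.0 FPKM in old samples. The groups did not overlap, and the gene did not pass (log2 change 0.27, SE 0.08, adjusted p = 0.0655). Idh2, the mitochondrial isocitrate dehydrogenase, had a log2 change of 0.17 with overlapping groups (adjusted p = 0.327).

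**Figure D4:**
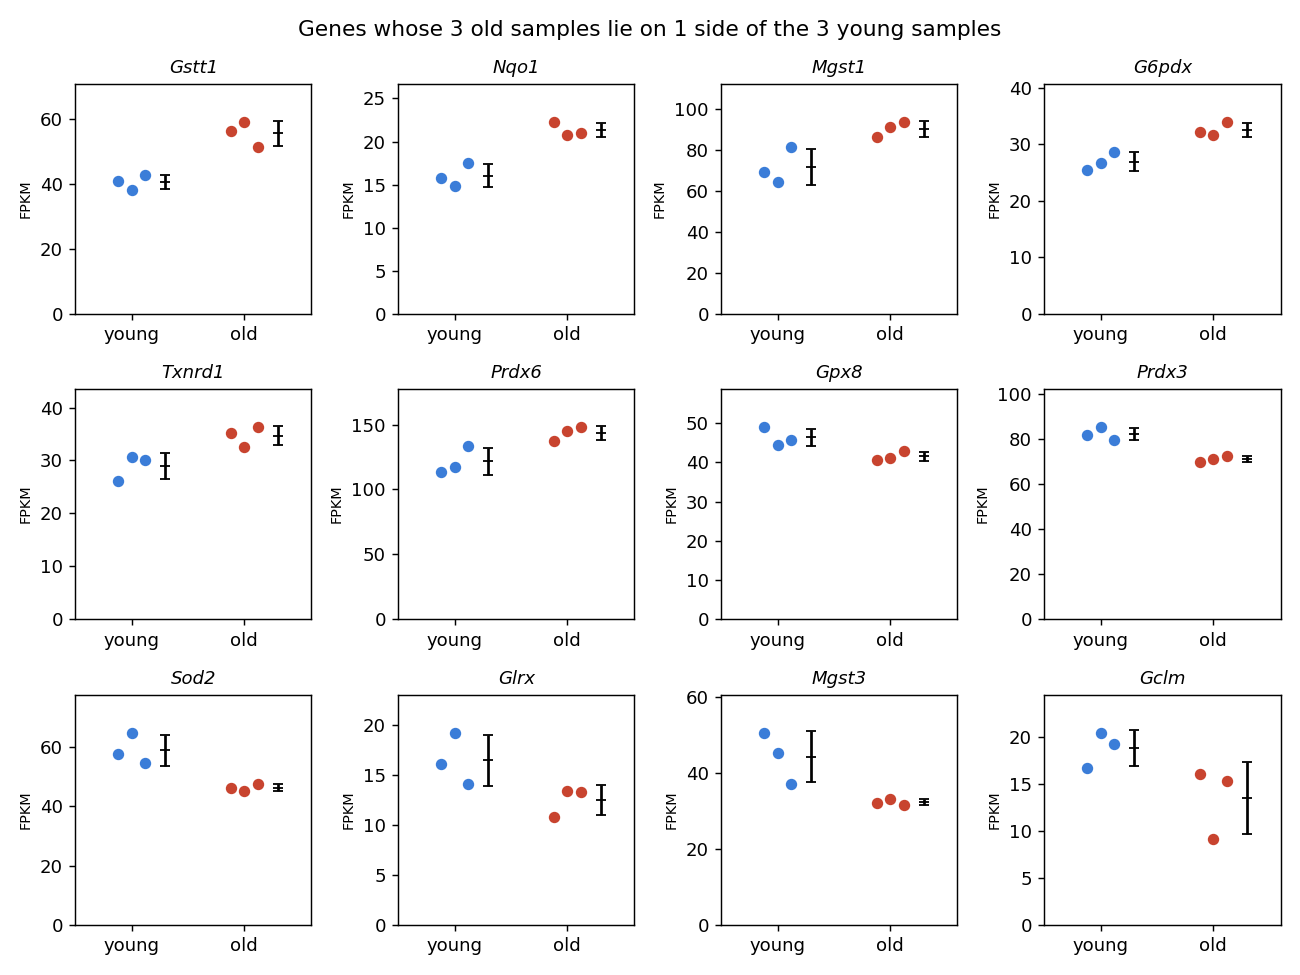
FPKM in each young (blue) and old (red) sample of the 12 members whose groups did not overlap, with mean ± SD at the right of each group (n = 3) and axes that start at 0. The old samples lay above the young ones for the first 6 panels and below them for the last 6, and the gap between the groups was narrow for several genes, such as Gpx8 and Gclm.

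Several enzymes have a cytosolic and a mitochondrial form, and their ratio within a sample does not depend on how the samples were scaled to each other. These pairs were formed after the values were seen, so the ratios are given without a test. The ratio of Sod1 to Sod2 was 5.10 to 6.07 in young and 7.198 to 7.88 in old samples, and that of Prdx1 to Prdx3 was 2.67 to 3.12 and 3.49 to 3.66. Neither ratio overlapped between the ages. In contrast, the ratios of Txn1 to Txn2 (1.88 to 2.29 and 2.09 to 2.21) and of Txnrd1 to Txnrd2 (5.37 to 6.99 and 4.97 to 7.17) overlapped. The mitochondrial members thus had log2 changes on both sides of 0, namely -0.34 for Sod2, -0.21 for Prdx3, -0.04 for Txn2, 0.17 for Idh2 and 0.25 for Txnrd2. Within glutamate-cysteine ligase, the ratio of Gclc to Gclm was 1.44 to 1.85 in young and 1.93 to 3.19 in old samples. The highest value was that of old sample 2, in which the short Gclm transcripts named above were low.

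The regulators of the pathway did not pass the test. Nfe2l2 (chr2:75675513-75704641, - strand) was at 24.9, 24.4 and 25.0 FPKM in young samples, beside 17.7, 19.7 and 25.2 FPKM in old ones. Old sample 3 was at the young level and the other 2 were lower, so the groups overlapped. The log2 change of Nfe2l2 was -0.26 (SE 0.13, 95% confidence interval -0.56 to 0.04, limma adjusted p = 0.240), with an exact permutation p = 0.4 (two-sided, smallest possible 0.1). Keap1 (chr9:21229730-21239361, - strand) was at 27.0, 27.7 and 30.2 FPKM in young and 29.5, 30.2 and 30.9 FPKM in old samples. These groups overlapped as well (log2 change 0.10, SE 0.07, 95% confidence interval -0.08 to 0.27, adjusted p = 0.444).

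Nrf2 binds DNA as a dimer with a small Maf protein and competes with Bach1 and Bach2. Of 11 genes for such partners, competitors and degradation factors, 2 rose and 0 fell (18.2%, beside 5.41% of all genes higher and 3.68% lower), and the median log2 change was -0.08. The old samples lay wholly below the young ones for 5 of the 11 (45.5%, beside 16% of all genes) and wholly above them for 2 (18.2%, beside 17.5%). Both that rose were small Maf genes. Maff was at 7.87, 7.25 and 6.27 FPKM in young and 20.2, 17.3 and 16.2 FPKM in old samples (log2 change 1.31, SE 0.13, limma adjusted p = 0.00825), and Mafk was at 13.7, 13.4 and 14.7 FPKM in young and 29.96, 24.9 and 26.1 FPKM in old samples (log2 change 0.95, SE 0.10, adjusted p = 0.00867). For both genes every old sample was above every young sample, and they passed under each of the 17 alternative settings. The third small Maf gene, Mafg, had a log2 change of -0.18 (adjusted p = 0.233), and Bach1 one of -0.08 (adjusted p = 0.653).

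Because Nrf2 and the small Maf proteins act through antioxidant response elements, the promoters of the members were searched on both strands for the core letters TGACNNNGC. RefSeq promoter sequences (GRCm38.p6, 250 bases before to 50 bases after the annotated start) were matched for 34 of the 40 genes, and were not found for Gclc, Gsr, Gsta4, Hmox1, Prdx6 and Sod3. Positions refer to that annotated start, which need not be the start of the most abundant transcript. The most abundant transcripts of Mgst1 (ENSMUST00000008684) and G6pdx (ENSMUST00000004327) start at chr6:138140316 and chrX:74429194. The matches of Mgst1 and G6pdx thus lie after the starts of these transcripts. The core letters were found for 9 of the 34 genes (26.5%), beside 14.0% of 27025 genes with a promoter sequence. A match is a description of the letters and not a known binding site. The matches are shown with 10 bases on each side, 5′ to 3′ on the strand that carries the motif, with the motif in capitals. That strand is opposite to the gene for all but Gstm5 and Nfe2l2.
Mgst1, chr6:138140461-138140489, 56 bases before the start: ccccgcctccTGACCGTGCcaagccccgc
G6pdx, chrX:74428919-74428947, 57 bases before: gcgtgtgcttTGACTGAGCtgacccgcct
Txnrd1, chr10:82859104-82859132, 92 bases before: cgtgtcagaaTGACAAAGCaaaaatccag
Prdx1, chr4:116685456-116685484, 133 bases before: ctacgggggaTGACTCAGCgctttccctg
Sod1, chr16:90220696-90220724, 56 bases before: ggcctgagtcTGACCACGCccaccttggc
Srxn1, chr2:152105542-152105570, 29 bases after: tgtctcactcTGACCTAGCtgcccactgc
Gstm5, chr3:107895802-107895830, 42 bases before: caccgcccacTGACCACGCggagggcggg
Nfe2l2, chr2:75704885-75704913, 240 bases before: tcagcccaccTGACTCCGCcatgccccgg
Gclm, chr3:122245413-122245441, 134 bases before: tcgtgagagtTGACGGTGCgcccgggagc

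Only the match of Prdx1 also holds TGACTCA, the letters of an AP-1 site. The genes shown had log2 changes on both sides of 0, from -0.51 for Gclm and -0.26 for Nfe2l2 to 0.34 for Mgst1, 0.27 for G6pdx and 0.26 for Txnrd1. The 3 genes past the threshold, Gstt1, Nqo1 and Sod2, had promoter windows without these letters, which says only that the letters are not in this window.

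The members were represented by 108 transcripts, all annotated as protein coding, of which 95 were tested. When each transcript was tested on its own, 0 of them passed the limma test, beside 0.549% of all transcripts higher and 0.199% lower. At an unadjusted p below 0.05, 8 were higher and 8 were lower (8.42% each), beside 9.05% and 7.98% of all transcripts. The smallest adjusted p, 0.0617, belonged to the Gpx1 transcript ENSMUST00000082429 (1072 nt), which was at 51.2, 49.4 and 47.0 FPKM in young and 68.7, 61.6 and 65.3 FPKM in old samples. Its groups did not overlap, whereas those of the more abundant Gpx1 transcript ENSMUST00000193987 (653 nt) did, with means of 98.3 and 103 FPKM. These transcripts were singled out after their values were seen.

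The most abundant transcripts of 7 members share exact stretches of 100 nt or more with other genes, from which some of their reads could come. A stretch of 100 nt is shorter than a read of 150 nt, and whether reads were misplaced was not tested. The shared part was 80.7% of the Gpx4 transcript (with Gpx4-ps2 and another gene) and 70.5% of the Gstp1 transcript (with Gstp2 and Gstp-ps), so that the levels of these 2 genes are uncertain. It was 26.8% for Gstm1, 19.03% for Sod1, 10.7% for Prdx2, 6.36% for Prdx1 and 3.96% for G6pdx. The other 33 members, Gstt1, Nqo1 and Sod2 among them, had no such stretch.

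A further 51 genes of the same pathways, such as other transferases, methionine sulfoxide reductases, metallothioneins and ferritins, were examined for context. Of these, 9 rose and 0 fell (17.6%), beside the 5.41% and 3.68% of all genes given above and the 8.31% and 4.88% of genes with a mean of at least 10 FPKM, a level that all 9 reached, with a median log2 change of 0.10. The largest changes were those of Mt1 and Mt2, which encode metallothioneins, proteins that bind zinc and copper and scavenge radicals. Mt1 was at 349.5, 213 and 227 FPKM in young and 586, 698 and 787 FPKM in old samples (log2 change 1.42, SE 0.20, limma adjusted p = 0.0137). Mt2 was at 353, 144 and 166 FPKM in young and 595, 611 and 634 FPKM in old samples (log2 change 1.59, SE 0.30, adjusted p = 0.0265). The groups overlapped for neither gene, and young sample 1 was the highest of the young samples for both. Without old sample 2 the adjusted p of Mt1 was 0.0613, and Mt2 passed with 1 of the 6 samples left out, young sample 1.

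Ephx1, the microsomal epoxide hydrolase, was at 157, 117 and 150.4 FPKM in young and 221, 219.9 and 229 FPKM in old samples (log2 change 0.67, SE 0.11, adjusted p = 0.0211). Gstm2, a mu class transferase, was at 61.5, 51.9 and 79.3 FPKM in young and 91.6, 98.5 and 103 FPKM in old samples (log2 change 0.63, SE 0.15, adjusted p = 0.0427). Every old sample was above every young sample for both. Ephx1 passed without any 1 young sample and was lost without old sample 1, 2 or 3 (adjusted p = 0.0743 at most), and Gstm2 passed only without young sample 3 (adjusted p = 0.128 at most without another). The remaining 5, named after their values were seen, were the transferase Gstt2, the methionine sulfoxide reductase Msrb3, the selenoprotein Selenow, and Tkt and Taldo1 of the pentose phosphate pathway, with log2 changes of 0.46, 0.45, 0.38, 0.36 and 0.27. Macrophage markers rose in the same samples, as given above, and their part in these changes was not tested.

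Of 21 genes for enzymes that produce reactive oxygen or nitrogen species and inflammatory lipids, 17 were tested, 1 rose and 0 fell (5.88%, beside 5.41% of all genes higher and 3.68% lower), with a median log2 change of 0.26. The old samples lay wholly above the young ones for 6 of the 17 (35.3%, beside 17.5% of all genes) and wholly below them for 2 (11.8%, beside 16%). At an unadjusted limma p below 0.05, 7 were higher and 1 was lower (41.2% and 5.88%, beside 14.5% and 13% of all genes). Cyba, the p22phox subunit shared by several NADPH oxidases, was at 72.6, 59.3 and 77.2 FPKM in young and 109, 116 and 109 FPKM in old samples. Every old sample was above every young sample (log2 change 0.68, SE 0.10, limma adjusted p = 0.0167), and the call was lost without old sample 1, 2 or 3 (adjusted p = 0.0708 at most). Cybb, the catalytic subunit of the phagocyte oxidase, was at 3.23, 1.47 and 6.48 FPKM in young and 7.57, 6.53 and 5.97 FPKM in old samples. The groups overlapped (log2 change 1.05, SE 0.46, adjusted p = 0.189). Nox3, the oxidase known from the inner ear, was listed at 0.1 FPKM in young sample 1 and at 0 in the other 5 samples, and was not tested.

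**Figure D5:**
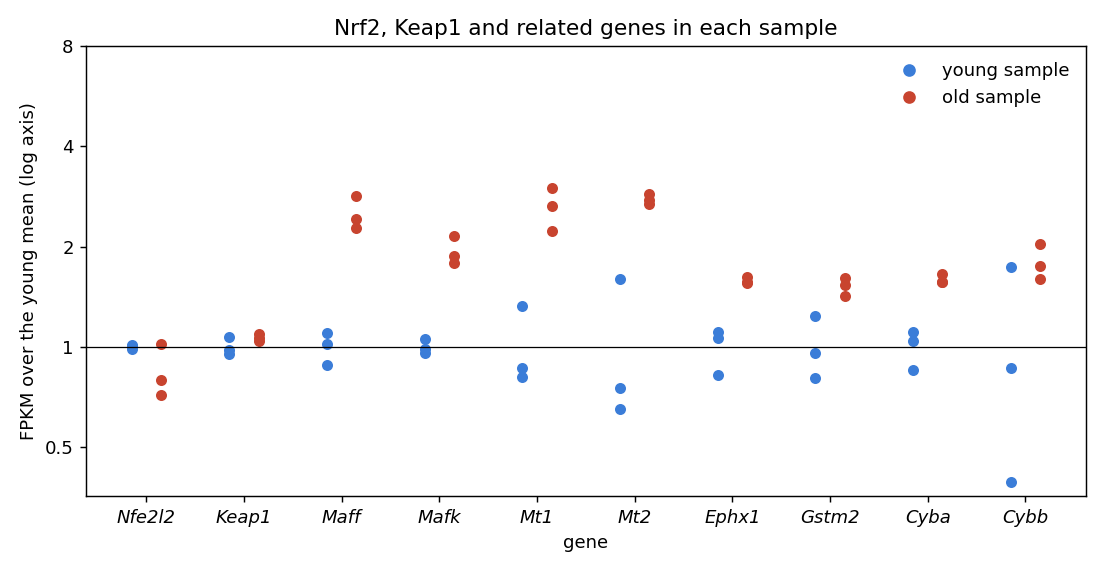
FPKM of Nfe2l2, Keap1 and 8 related genes in each sample, divided by the mean of the young samples (log axis), with young samples in blue and old samples in red. The old samples of Nfe2l2 and Keap1 lay between 0.715 and 1.09 times the young mean, while those of Maff, Mt1 and Mt2 lay between 2.23 and 2.99 times.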

How the data were processed

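Cochlear RNA of 3 young and 3 old samples was sequenced by the authors, with paired-end reads and directional libraries. The submitters' processing notes name CASAVA 1.8, TopHat2 2.0.9, Cufflinks 2.1.1, Cuffdiff 2.1.1 and GRCm38. The authors deposited FPKM per transcript and sample, normalized for transcript length and depth. How libraries were scaled to each other and which annotation release was used are not given in the sources used here. Cuffdiff divides fragments among transcripts by an estimate, so single transcripts are less certain than sums per gene.

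The table held 56671 transcripts, of which 55275 were matched by identifier to GENCODE M21 (Ensembl 96), which gave gene names and positions, and summed per gene. Transcripts without a match, 992 entries with LNC names among them, were each kept as a gene of their own. They are part of the 25823 genes, and those past the filter were tested. Low FPKM values are multiples of what 1 fragment is worth, which gave an estimate of depth, and of these values 93.3% to 94.8% lay within 0.1 of a whole fragment (20% by chance). At least 42.5 estimated fragments stood behind each member in each sample. Samples were grouped by their labels. Old and young were compared with limma 3.58.1 in R 4.3.3 (lmFit, eBayes with trend) on log2(FPKM + 0.1) for genes with a mean of 0.1 FPKM or more, two-sided, with Benjamini-Hochberg adjustment over all 19649 genes tested and a threshold of 0.05. Fold changes on this scale understate the change of low genes. Cuffdiff, the study's test, works on reads and was not run. The code was tested on simulated data in which 200 genes were changed and no others. Of these, 29% passed at a log2 change of 0.5 and 94% at 1. Most changes of 0.5 were thus missed there, and a member that did not pass was not shown to be unchanged. Exact permutation tests of 3 against 3 samples cannot give a p below 0.1. Python 3.11.15, pandas 2.3.3, numpy 2.4.6 and matplotlib 3.10.9 were used for tables, sequence searches and plots.

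The members and all lists were chosen with earlier results of these data known. Values in every sample are given for members past the threshold, Nfe2l2, Keap1 and the 5 most abundant members, and for further members whose groups lie close to the threshold or where 1 sample stands out, a choice made with their values known. From the related lists, up to 4 genes past the threshold in each direction with the largest change, Nox3 and Cybb are named by rule, and other names were picked with their values known. The alternatives were pseudocounts of 0.01 and 1, no filter, a mean FPKM of at least 1, median of ratios scaling, quantile normalization, no variance trend, a replicate block, transcripts of at least 500 nt, protein-coding transcripts, the most abundant transcript per gene and each sample left out. An unadjusted p, the test of each transcript and the same settings for the related lists were added after the values were seen.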

Additional observations from a re-analysis of the deposited data

How the results depend on the processing

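The members higher and lower in old cochleae (2 and 1) were 2 and 2 where a mean of 1 FPKM was required and with quantile normalization, 3 and 2 with protein-coding transcripts or transcripts of at least 500 nt, 1 and 0 with no filter, 0 and 0 with no variance trend, 7 and 6 with an unadjusted p, and 0 to 4 and 0 to 2 with 1 sample left out. The no-filter setting tested 22673 genes in place of 19649. The median log2 change of the members was -0.017 with quantile normalization, beside -0.021 over all genes tested. Samples with the same number did not deviate together (correlations of -0.04 to 0.02, 0 of 3 above 0.1), so the numbers were not taken as pairs. With the replicate block the members were 0 and 0, the further antioxidant genes 3 higher, and all genes 410 higher and 265 lower, beside 1063 and 724 without it. With 1 sample left out, the counts over all genes were lowest without old sample 2 (44 higher and 15 lower) and were 935 and 821 without young sample 3. With no variance trend they were 271 and 121, and with no filter 616 and 292. They were 1315 and 968 of 15894 genes with protein-coding transcripts, and 1394 and 1046 of 17847 with transcripts of at least 500 nt. Where a mean of 1 FPKM was required they were 1141 and 883 of 15074. With quantile normalization they were 889 and 787 of 19649, and with the most abundant transcript 820 and 531 of 19482. For the other counts that moved, the cause was not tested.

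Gstt1 passed under 11, Nqo1 under 9 and Sod2 under 9 of the 17 alternatives, without a change of direction. Of the 40 members, 23 kept their direction under all 17. The sign turned with quantile normalization for Gpx3 (-0.023), Sod1 (-0.11), Prdx5 (-0.012), Txn1 (-0.035), Gsta4 (-0.060) and Gpx4 (-0.034), with transcripts of at least 500 nt for Gpx7 (-0.15), and with the most abundant transcript for Prdx2 (0.072), Gss (0.025), Gpx7 (-0.15) and Txnrd2 (-0.94). With 1 sample left out, the log2 change crossed 0 for Gstm5 (-0.11 to 0.0094), Txn2 (-0.15 to 0.040), Gpx3 (-0.10 to 0.22), Txn1 (-0.0090 to 0.053), Gsta4 (-0.10 to 0.17), Gclc (-0.052 to 0.10), Gpx7 (-0.21 to 0.26), Srxn1 (-0.027 to 0.11), Gstm1 (-0.11 to 0.046), Prdx2 (-0.075 to 0.0045), Cat (-0.11 to 0.035) and Gstp1 (-0.30 to 0.055).

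The further antioxidant genes that rose (9) were 4 with no filter, 0 with no variance trend, 5 with quantile normalization, 14 with an unadjusted p (27.5%, beside 14.5% of all genes) and 0 to 8 with 1 sample left out. The oxidant-producing genes that rose (1) were 2 where a mean of 1 FPKM was required, with quantile normalization and with the most abundant transcript, 3 with protein-coding transcripts, 4 with transcripts of at least 500 nt, 0 with no variance trend, 7 with an unadjusted p (41.2%, beside 14.5% of all genes) and 0 to 2 with 1 sample left out. The genes for partners of Nrf2 that rose were 2 under each of these settings. The half-width of the members' 95% confidence intervals had a median of 0.22 on the log2 scale with 3 pools per age.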

Other observations

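Slc7a11, the cystine transporter that feeds glutathione synthesis, had the lowest log2 change of the further antioxidant genes. It was at 4.01, 5.48 and 3.99 FPKM in young and 2.78, 3.75 and 2.55 FPKM in old samples, without overlap and without passing the test (log2 change -0.56, SE 0.21, limma adjusted p = 0.136). Mt3, the metallothionein of neurons, was at 132, 128 and 121 FPKM in young and 94.7, 97.7 and 114 FPKM in old samples, again without overlap (log2 change -0.32, SE 0.08, adjusted p = 0.0562), while Mt1 and Mt2 rose. Fth1, the ferritin heavy chain, was at 788 to 827 FPKM in young and 778 to 853 FPKM in old samples, with a log2 change of 0.01 (adjusted p = 0.956). These 3 genes were chosen after their values were seen.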
